A study of Homo sapiens with 5 samples.

Results

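Peaks of Flag-tagged wild type ENL were set against peaks of β-hydroxybutyrylated lysine 9 of histone H3 (H3K9bhb) in HepG2 cells, a human liver cancer line. All peaks of both lists on chromosomes 1 to 22, X and Y were taken, which gave 20570 of the 61337 peaks in the 5 lists of the series. Of these, 11394 were ENL peaks and 9176 were H3K9bhb peaks. A peak counted as shared when it overlapped a peak of the other list by at least 1 bp.

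The assay was CUT&Tag, in which an antibody brings a transposase to chromatin and the tagged fragments are sequenced. The study's design text names HepG2 cells that stably express Flag-tagged ENL, profiled with an antibody against Flag or against H3K9bhb, to ask whether ENL and this mark meet in native chromatin. Each side was 1 library. Treatment of the cells, the promoter that drives the tagged ENL and whether the cells were 1 clone are unstated. The remaining libraries were Flag-ENL carrying the Y78A substitution, H3K9ac (acetylation) and H3K9cr (crotonylation). With 1 library a side no difference had a replicate check, so no test between the libraries was possible. All intervals are 95% intervals over peaks or genes and cover counting error only.

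ENL, the product of MLLT1, belongs to complexes that release RNA polymerase II into productive elongation, among them the super elongation complex. Its YEATS domain holds acylated lysines of histone H3 in an aromatic pocket. β-Hydroxybutyrylation is a lysine acylation derived from the ketone body β-hydroxybutyrate, which the liver makes during fasting, and histones carrying it have been linked to active genes.

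The promoter sequences of 7 genes are shown because a peak summit lay inside them, and they are the strongest such genes of each class with a known start by the authors' fold (their deposited ratio of summit signal to local background). The sequences are from RefSeq (GRCh38.p14), run from 250 bases before to 50 bases after the gene start, and are written 5′ to 3′ on the gene's strand. Capitals mark matches, on either strand, to the GC box GGGCGG, the CCAAT box CCAAT, the ETS motif CCGGAAG, the NRF1 motif GCATGCGC, the YY1 motif AAGATGGCG, the CRE core TGACG, the TATA box TATAAA and the FOXA motif TGTTTAC. SPATC1L (chr21:46184410-46184709, minus strand), PSMG1 (chr21:39183402-39183701, minus strand) and TFB1M (chr6:155314435-155314734, minus strand) had both peaks.
SPATC1L: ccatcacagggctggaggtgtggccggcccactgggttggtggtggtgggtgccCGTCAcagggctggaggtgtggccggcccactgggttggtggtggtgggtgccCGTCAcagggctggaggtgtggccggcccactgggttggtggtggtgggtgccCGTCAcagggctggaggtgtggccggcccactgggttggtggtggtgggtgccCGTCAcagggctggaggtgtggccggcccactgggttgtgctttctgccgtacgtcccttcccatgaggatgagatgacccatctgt
PSMG1: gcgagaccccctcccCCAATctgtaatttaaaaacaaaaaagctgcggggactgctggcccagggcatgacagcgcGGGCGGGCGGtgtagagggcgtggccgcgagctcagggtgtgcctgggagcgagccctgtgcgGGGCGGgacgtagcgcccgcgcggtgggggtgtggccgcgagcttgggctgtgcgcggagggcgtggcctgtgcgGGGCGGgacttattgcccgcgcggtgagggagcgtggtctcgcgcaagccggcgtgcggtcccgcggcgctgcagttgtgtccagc
TFB1M: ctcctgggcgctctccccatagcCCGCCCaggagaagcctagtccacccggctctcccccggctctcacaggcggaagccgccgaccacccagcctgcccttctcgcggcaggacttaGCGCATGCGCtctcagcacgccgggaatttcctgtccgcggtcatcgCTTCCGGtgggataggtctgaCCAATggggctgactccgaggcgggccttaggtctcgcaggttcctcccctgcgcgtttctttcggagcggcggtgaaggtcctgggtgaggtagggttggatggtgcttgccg
PTCHD4 (chr6:48111148-48111447, minus strand) and SELENOP (chr5:42811843-42812142, minus strand) had ENL and no H3K9bhb peak.
PTCHD4: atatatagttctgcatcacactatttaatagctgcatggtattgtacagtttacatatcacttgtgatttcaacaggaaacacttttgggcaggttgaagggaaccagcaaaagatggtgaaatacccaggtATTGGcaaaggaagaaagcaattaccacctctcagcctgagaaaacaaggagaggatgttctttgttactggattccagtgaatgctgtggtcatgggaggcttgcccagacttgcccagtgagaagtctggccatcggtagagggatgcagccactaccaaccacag
SELENOP: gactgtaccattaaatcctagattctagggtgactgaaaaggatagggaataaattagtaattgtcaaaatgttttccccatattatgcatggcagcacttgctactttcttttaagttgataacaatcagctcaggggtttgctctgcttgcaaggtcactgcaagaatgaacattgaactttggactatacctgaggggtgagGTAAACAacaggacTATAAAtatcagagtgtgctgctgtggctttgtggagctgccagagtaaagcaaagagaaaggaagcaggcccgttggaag
ZNF300 (chr5:150904931-150905230, minus strand) and CCDC66 (chr3:56556906-56557205, plus strand) had H3K9bhb and no ENL peak.
ZNF300: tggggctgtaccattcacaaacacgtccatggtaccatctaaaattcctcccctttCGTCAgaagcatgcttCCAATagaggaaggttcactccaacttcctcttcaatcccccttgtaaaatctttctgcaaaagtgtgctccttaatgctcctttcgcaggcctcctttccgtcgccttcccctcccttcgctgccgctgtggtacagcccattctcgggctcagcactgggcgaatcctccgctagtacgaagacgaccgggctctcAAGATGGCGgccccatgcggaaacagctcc
CCDC66: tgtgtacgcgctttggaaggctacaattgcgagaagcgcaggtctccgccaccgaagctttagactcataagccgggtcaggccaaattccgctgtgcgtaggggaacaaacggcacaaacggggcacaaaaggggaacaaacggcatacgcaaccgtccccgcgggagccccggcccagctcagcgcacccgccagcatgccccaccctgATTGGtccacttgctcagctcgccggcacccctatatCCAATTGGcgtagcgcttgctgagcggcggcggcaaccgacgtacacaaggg
A repeated stretch fills most of the SPATC1L sequence, and its CRE core letters recur 4 times, starting at -196, -143, -90 and -37 relative to the gene start. PSMG1, which encodes a chaperone of proteasome assembly, holds 4 GC boxes, and TFB1M, which encodes a mitochondrial ribosomal RNA methyltransferase, holds a GC box, an ETS motif, a CCAAT box and overlapping NRF1 matches. The ENL-only sequences shown, PTCHD4 with 45% G and C and SELENOP with 42.0%, lie below the median of their class, which is 65.7%. SELENOP, which encodes the plasma selenium carrier made by the liver, has a TATA box starting at -31 and a FOXA match starting at -45. ZNF300, a zinc finger gene, has its YY1 match 20 bases after the start.

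Summits held similar numbers of fragments in the 2 lists. The median summit held 23 fragments in ENL (10th to 90th percentile 13 to 49) and 21 in H3K9bhb (13 to 37), and no summit in either list held fewer than 8. These fragment numbers were recovered from the deposited fold and p of 99.99% of ENL peaks and 100% of H3K9bhb peaks. The most frequent local background, in fragments, was 1.29 in ENL and 1.21 in H3K9bhb. Read totals are unknown. Among liver markers, APOA1, APOA2, APOB and HNF4A had both peaks at a gene end, and FOXA1, FOXA2 and GPC3 had ENL only. ALB, AFP, TTR, FGA, FGB and SERPINA1 had neither at a gene end, so the lists carry only part of the liver marker set. Of the markers of other cells, PECAM1 had an ENL peak and PTPRC, CD3E, GFAP, MAP2, COL1A1 and VIM had neither.

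Most sites of both lists were shared, and the share was larger from the side of H3K9bhb, the shorter list. H3K9bhb overlapped 6811 ENL peaks (59.8%, interval 58.9 to 60.7) and missed 4583. ENL overlapped 6853 H3K9bhb peaks (74.7%, interval 73.8 to 75.6) and missed 2323. With the ENL list limited to its 9176 strongest peaks, the length of the H3K9bhb list, the shares were 66.7% and 67.2%. Only 77 ENL peaks and 35 H3K9bhb peaks met more than 1 peak of the other list. The shares at equal length therefore had to lie close, and the difference between the sides follows from list length. Peaks that missed the other list mostly lay far from it rather than just beside it. The median gap from an unshared ENL peak to the nearest H3K9bhb peak was 34350 bp, and 361 of the 4583 (7.88%) had one within 1000 bp. For unshared H3K9bhb peaks the median gap was 46679 bp, and 147 (6.33%) had an ENL peak within 1000 bp.

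Where the lists met, they met closely. The overlaps formed 6888 pairs, whose summits were a median of 57 bp apart (interval 55 to 60). The middle of that distribution ran from 21 bp at the 25th percentile to 123.25 bp at the 75th. Summits lay within 100 bp in 68.5% of pairs and within 200 bp in 87.9%. The overlap covered a median of 81.1% of the ENL peak and 94.3% of the H3K9bhb peak. ENL was the wider peak in 64.0% of pairs, with a median width ratio of 1.11. The H3K9bhb peak lay wholly inside the ENL peak in 2543 pairs (36.9%), and the reverse held in 1006 (14.6%). Pairs at gene ends were slightly wider apart than pairs elsewhere, at 64 bp (interval 61 to 67, 3323 pairs) against 52 bp (interval 49 to 54, 3565 pairs). A gene end here is the 1 kb on either side of the first or last base of a protein-coding gene. Across pairs the authors' folds ran in parallel, with a rank correlation of 0.709, and so did summit fragments (0.763) and widths (0.537). Both members of a pair share their place in the genome, its mappability and its copy number, so these correlations over 6888 pairs are a description only.

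Shared peaks were wider and taller than unshared ones, and they lay at gene ends more often. ENL peaks on H3K9bhb had a median width of 457 bp, a median fold of 5.49 and 26 summit fragments, against 301 bp, 4.42 and 20 for those off it. H3K9bhb peaks on ENL had 398 bp, 5.01-fold and 23 fragments, against 267 bp, 4.70-fold and 16. A wider peak has more room to overlap, so width and sharing are linked by construction. Summits fell at gene ends for 43.0% of all ENL peaks and 43.0% of all H3K9bhb peaks. The share was 48.2% for ENL peaks on H3K9bhb and 35.3% for those off it, a difference of 12.97 points (interval 11.1 to 14.8). For H3K9bhb peaks it was 48.2% on ENL and 27.7% off it, a difference of 20.5 points (interval 18.3 to 22.6).

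Unshared peaks lay more often inside genes, away from their ends. Inside a gene body were 22.3% of ENL peaks on H3K9bhb and 30.8% of those off it. Among H3K9bhb peaks the same position held 22.2% on ENL and 36.8% off it. Beyond 100 kb from any protein-coding gene the ENL shares were close, at 9.25% on and 8.55% off, while the H3K9bhb shares were 9.31% on and 12.4% off. The strongest shared ENL peaks away from gene ends were of this far kind and had a peak in all 5 lists. One at chr17:25920049-25920425 had an ENL fold of 28.6, and another at chr3:93470293-93470865 had an ENL fold of 27.4 and lay 402470 bp from PROS1. Among the strongest shared H3K9bhb peaks away from gene ends, one of 22.8-fold at chr12:133264834-133265366 lay closer to a gene, 29242 bp from ANHX. No unshared peak came near these values, the highest fold being 12.7 for ENL and 9.96 for H3K9bhb. Sites with a peak in all 5 lists are not particular to ENL and H3K9bhb. No regions prone to artefact signal were removed here, and the nature of these far sites was not tested.

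**Figure D1:**
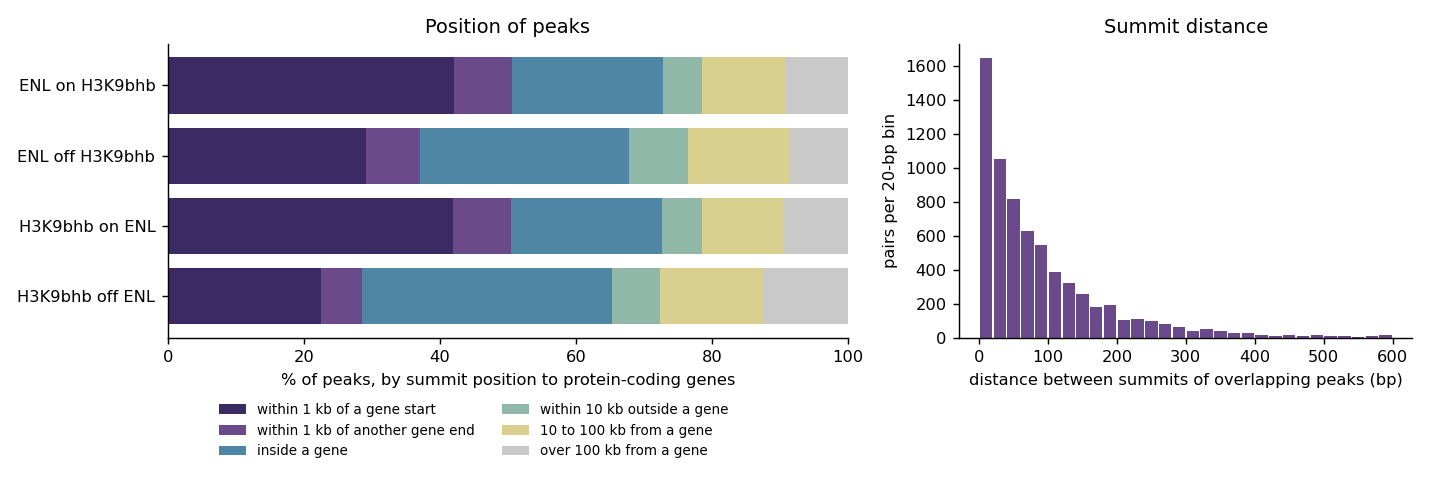
Left, the percent of peaks in each position class relative to protein-coding genes, for ENL peaks on and off H3K9bhb and H3K9bhb peaks on and off ENL. Right, the number of overlapping pairs per 20-bp bin of summit distance, where most pairs lie at short distances around the median of 57 bp. Within 1 kb of a gene start lie 42.1% of shared and 29.1% of unshared ENL peaks, and 41.9% of shared and 22.5% of unshared H3K9bhb peaks.

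Sharing rose with the strength of a peak. In 5 equal groups of the ENL list ranked by the authors' −log10 p, from weakest to strongest, H3K9bhb overlapped 31.5%, 41.9%, 57.7%, 75.6% and 92.3% of peaks. The corresponding shares of H3K9bhb peaks on ENL were 50%, 64.1%, 74.8%, 88.0% and 96.5%. The strongest groups of both lists were thus mostly shared sites. Ranked by fold, ENL peaks showed the same rise, from 32.6% to 88.2%. H3K9bhb peaks did not rise steadily by fold, with 72.0%, 67.8%, 72.4%, 74.6% and 86.6%. Equal groups by the recovered local background, a grouping chosen after the data were seen, gave a rise and a fall for ENL (54.2%, 61.1%, 64.4%, 63.5% and 55.7%) and a rise for H3K9bhb from 51.8% to 89.0%. The gene-end difference was also taken within groups of similar p. Within groups of −log10 p, shared ENL peaks lay at gene ends more often than unshared ones by 6.06 to 15.4 points, and shared H3K9bhb peaks by 17.7 to 33.4 points. Shared peaks were still the wider ones within each of these groups, and the part of width was not tested.

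**Figure D2:**
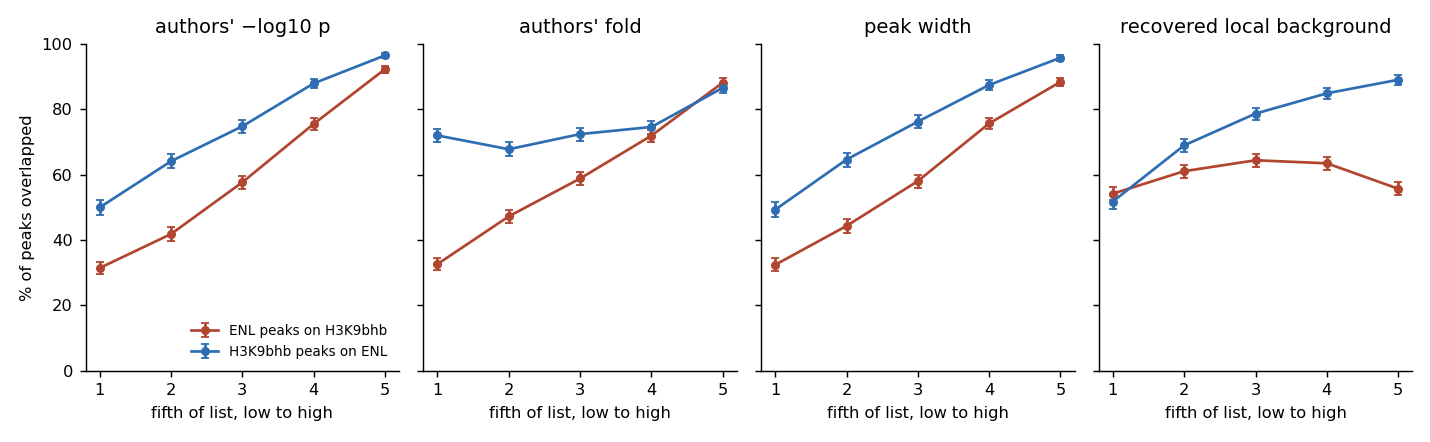
Percent of peaks overlapped by the other list (vertical axis) in 5 equal groups of each list from low to high (horizontal axis), ranked by the authors' −log10 p, the authors' fold, peak width and recovered local background. Points are shares and bars are 95% Wilson intervals. Both lists rise with p and width, from 31.5% to 92.3% for ENL and from 50% to 96.5% for H3K9bhb by p, while H3K9bhb rises with local background and ENL rises and then falls.

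Counted by gene, 20.4% of the 20037 protein-coding genes had both peaks at a gene end (4090 genes), 8.20% had ENL only (1644) and 3.37% had H3K9bhb only (676). ENL alone was counted at 28.6% of genes with or without the mark, and H3K9bhb at 23.8%. H3K9bhb was thus present at 71.3% of ENL genes, and ENL at 85.8% of H3K9bhb genes. At 3944 of the 4090 shared genes (96.4%) the strongest peaks of the lists overlapped each other, at a median summit distance of 66 bp. Missing partners were seldom just outside the window, since 121 ENL-only genes (7.36%) had H3K9bhb and 32 H3K9bhb-only genes (4.73%) had ENL when the window was widened to 2500 bp. Nearly all genes of the 3 classes had an H3K9ac peak at a gene end. The shares were 98.9% of shared, 95.7% of ENL-only and 96.6% of H3K9bhb-only genes, against 36.9% of genes with neither. Y78A divided the classes more and had a peak at 62.1% of shared genes, 19.2% of ENL-only genes and 5.33% of H3K9bhb-only genes. Of genes with neither, 0.330% had a Y78A peak. These lists differ in length, with 5422 peaks for Y78A, 31493 for H3K9ac and 3852 for H3K9cr. Weaker ENL peaks also marked the ENL-only genes (median fold 4.48 against 5.65), and the part of peak strength in the Y78A shares was not tested. Counted by peak, H3K9ac was less even. It overlapped 88.4% of ENL peaks on H3K9bhb and 64.8% of those off it. Of H3K9bhb peaks it overlapped 88.0% on ENL and 65.4% off it. H3K9cr overlapped 28.2% of ENL peaks on H3K9bhb and 5.43% of those off it. Of H3K9bhb peaks it overlapped 28.1% on ENL and 15.7% off it.

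Among the named genes with both peaks, SPATC1L led, with 14.6-fold ENL and 14.4-fold H3K9bhb and summits 7 bp apart in its repeat-filled promoter. By fold it ranked 2 in each list among all genes with a gene-end peak, so it was not the highest. LRIF1, a protein of heterochromatin on chromosome 1, followed with 10.6-fold ENL (110963712 to 110964194) and 11.4-fold H3K9bhb (110963817 to 110964224). A single pair of peaks lay at CCDC59 and METTL25 on chromosome 12, with 9.81-fold ENL and 9.67-fold H3K9bhb. BRWD1, which encodes a bromodomain protein, and PSMG1 likewise share a pair, at the start of PSMG1 and the far end of BRWD1, with 9.92-fold ENL and 9.12-fold H3K9bhb. TFB1M had 9.91-fold ENL and 8.82-fold H3K9bhb. ODR4 and TPR, the latter a nuclear pore basket protein, share a 9.11-fold ENL and a 9.66-fold H3K9bhb peak. ICE1, a scaffold of the little elongation complex, had 9.17-fold ENL and 9.39-fold H3K9bhb with summits 12 bp apart, and it was the only one of these 10 genes without a Y78A peak. All 10 had H3K9ac and H3K9cr peaks at a gene end, although H3K9cr had one at only 19.6% of all shared genes. Each of the 10 but ICE1 thus had peaks of all 5 lists, and such genes are not particular to ENL and H3K9bhb. Across the 4090 genes the rank correlation of the folds was 0.663, again over points that share their place in the genome.

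**Figure D3:**
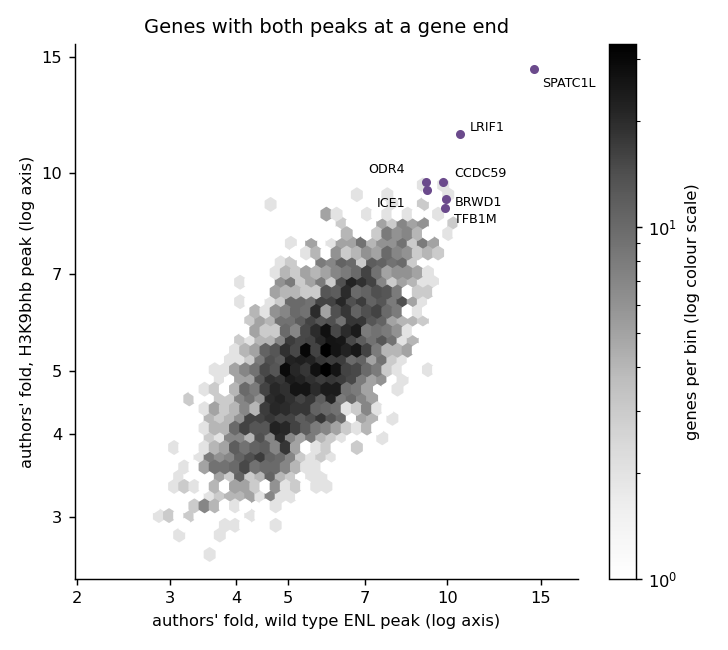
Authors' fold of the strongest gene-end ENL peak (horizontal, log axis) against that of the strongest H3K9bhb peak (vertical, log axis) for the 4090 genes with both, shaded by genes per bin. Coloured points are the named genes, 1 label for each shared pair of peaks, and SPATC1L, at 14.6 and 14.4, is the highest of these named genes.

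ENL-only genes had no H3K9bhb peak at either end, and the 8 named here were chosen for the highest ENL fold. Across the 1644 genes of the class the median ENL fold was 4.48, against 5.65 at shared genes. CDC40, a splicing factor, and WASF1, an actin regulator, share an 8.46-fold ENL peak of 21 fragments on chromosome 6 (110179757 to 110180194). PTCHD4, a patched-related membrane protein, had 8.31-fold ENL with 27 fragments. KAT6B, a histone acetyltransferase, had 8.16-fold ENL with 89 fragments in a peak of 1136 bp. SELENOP had 8.01-fold ENL with 43 fragments. SLC38A6 and TRMT5 share an 8.01-fold ENL peak, and HNMT, the enzyme that methylates histamine, had 7.97-fold ENL. SELENOP, SLC38A6, TRMT5 and HNMT also had a Y78A peak, whereas CDC40, WASF1, PTCHD4 and KAT6B did not.

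H3K9bhb-only genes had peaks of fewer fragments than shared genes. ANKRD49 on chromosome 11 (94493829 to 94494205) had 9.06-fold H3K9bhb from 19 fragments, PABIR1 8.94-fold from 23 and GPR171, a G protein-coupled receptor, 8.77-fold from 22 at a summit 4625 bp downstream of its start. MRPL15, a mitochondrial ribosomal protein, had 8.26-fold from 21. ZNF300 had 8.15-fold from 17 fragments, over a background of 1.21. CENPP, a centromere protein, and NOL8 share a 7.42-fold H3K9bhb peak, and PRMT3, an arginine methyltransferase, had one of 7.42-fold as well. None of these genes had a Y78A peak. The median H3K9bhb peak of this class held 15 fragments, against 23 at shared genes.

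Among gene ends, starts held more peaks of both lists than other ends did. Starts and strands were known for 15842 genes, of which 4742 (29.9%) had ENL within 1 kb of the start and 3933 (24.8%) had H3K9bhb. Among 12790 other ends of genes over 5 kb long that lay clear of any of these starts, 130 (1.02%) had ENL and 92 (0.719%) had H3K9bhb. The summits sat upstream of the start at shared genes, with a median of -115 bp for ENL (interval -121 to -107) and -118 bp for H3K9bhb (interval -125 to -108). At ENL-only starts the median was -71 bp (interval -89 to -53). At H3K9bhb-only starts it was -8 bp (interval -27 to 17), close to the start itself.

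The H3K9bhb-only summits were thus shifted toward the gene. They fell in the first 250 bp downstream at 38.7% of the 535 H3K9bhb-only starts, against 25.01% of the 3398 shared starts, a difference of 13.7 points (interval 9.38 to 18.1). The ENL-only share was 26.5% of 1344 starts, and the H3K9bhb-only share exceeded it by 12.2 points (interval 7.499 to 16.98). Neighbouring genes can share a start region and a peak, so the starts are not independent. Starts facing away from each other within 1 kb made up 21.8% of shared, 17.0% of ENL-only, 19.3% of H3K9bhb-only and 5.27% of empty starts, against 10.3% of all.

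**Figure D4:**
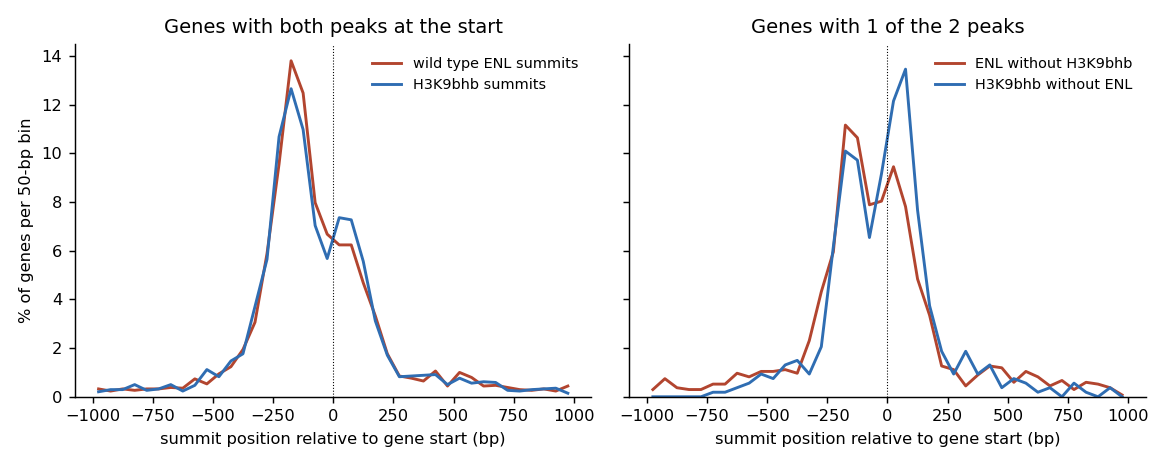
Percent of genes (vertical axis) by position of the strongest summit relative to the gene start, in 50-bp bins (horizontal axis, bp, negative is upstream). Left, genes with both peaks, where ENL and H3K9bhb run together and are highest in the bin starting at -200 bp, at 13.8% and 12.7%. Right, genes with 1 of the peaks, where ENL without H3K9bhb is highest in the same bin (11.2%) and H3K9bhb without ENL in the bin starting at 50 bp (13.5%).

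Promoters with either peak were richer in G, C and CpG than promoters with neither, and in these the 3 occupied classes lay close together. The median G and C content over the 300-base window was 66.0% at shared, 65.7% at ENL-only, 65.0% at H3K9bhb-only and 60.3% at empty starts. The ratio of observed to expected CpG was 0.862, 0.877, 0.862 and 0.646 in the same order. The GC box, the site of SP-family factors, was found in 77.7% of shared, 71.7% of ENL-only, 72.9% of H3K9bhb-only and 49.9% of empty promoters, and in 58.5% of all. The ETS letters were in 21.5%, 22.02%, 24.9% and 10.4% (14.2% of all), and the YY1 letters in 4.71%, 4.61%, 4.30% and 1.79% (2.74% of all). Shared promoters held the GC box more often than ENL-only promoters by 6.04 points (interval 3.29 to 8.86) and than H3K9bhb-only promoters by 4.80 points (interval 0.928 to 8.95). For the ETS and YY1 letters the intervals of the differences among the occupied classes include 0.

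Some other letters differed between occupied classes. The CCAAT box, bound by NF-Y, was in 44.9% of shared, 41.1% of ENL-only and 34.6% of H3K9bhb-only promoters, against 36.4% of all. Shared promoters held it more often than H3K9bhb-only promoters by 10.3 points (interval 5.88 to 14.6). The TATA box TATAAA ran the other way in ENL-only promoters, at 6.55%, against 4.21% of shared and 2.80% of H3K9bhb-only promoters, with 12.1% of empty and 9.63% of all. The NRF1 letters were in 7.33% of shared, 4.91% of ENL-only and 5.79% of H3K9bhb-only promoters (4.26% of all). Their difference of shared from ENL-only promoters was 2.42 points (interval 0.884 to 3.803), while both differences from H3K9bhb-only promoters had intervals that include 0. The ZBTB33 letters TCTCGCGAG were in 2.53%, 1.19% and 1.12% (1.05% of all). The CRE core, which is part of the full CRE TGACGTCA, was in 39.8%, 35.9% and 35.1% (29.5% of all). The E-box CACGTG was in 8.88% of all promoters, the AP-1 motif TGANTCA in 5.75%, the FOXA motif TGTTTAC in 2.61%, the CEBP motif TTGCNNCAA in 1.67% and the HNF4 motif CAAAGTCCA in 0.316%, where N is any base. For these 5 motifs and the full CRE (2.59% of all) every difference among the occupied classes had an interval that includes 0. These are matches of letters in a fixed window, and a match is not a bound site. Among 14 motifs and 3 class differences each, some intervals would leave out 0 without any difference.

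Gene families were described by the share of their ENL genes that carried H3K9bhb, which was 71.3% over all ENL genes. The interval of that share held 71.3% in each of the 35 families except replication-dependent histones (17.7 to 43.4) and cytosolic ribosomal proteins (35.9 to 60.8). Among the cyclin and CDK genes, 13 had both peaks, 1 had ENL only and 2 had H3K9bhb only, so 92.9% of ENL genes carried the mark (interval 68.5 to 98.7). CCNB1, the mitotic cyclin, had 8.66-fold ENL and 5.93-fold H3K9bhb, and CDK2 7.80-fold and 7.69-fold. CCNB2 had 5.97-fold H3K9bhb and no ENL peak. Nuclear pore genes stood at 11 with both and 1 with ENL only, led by NUP88 with 8.67-fold ENL and 6.69-fold H3K9bhb. Translation initiation factor genes had both at 30, ENL only at 6 and H3K9bhb only at 4, with EIF2A at 8.61-fold ENL and 5.44-fold H3K9bhb. Chaperone genes had both at 33, ENL only at 7 and H3K9bhb only at 1, and HSPA8, the constitutive HSP70, had 8.10-fold ENL and 7.77-fold H3K9bhb 8 bp apart. Splicing factor and hnRNP genes had both at 43, ENL only at 13 and H3K9bhb only at 4.

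Genes of ENL's own partners carried the mark at about the rate of all ENL genes. Of 22 genes of YEATS readers and elongation partners, 13 had both peaks, 4 had ENL only and none had H3K9bhb only, so 76.5% of ENL genes carried the mark (interval 52.7 to 90.4). CCNT2, a cyclin of the P-TEFb kinase, had 7.70-fold ENL and 7.81-fold H3K9bhb with summits 4 bp apart. LARP7, which stabilises the 7SK RNA that restrains this kinase, had 9.18-fold ENL and 7.60-fold H3K9bhb. The PAF1 complex was divided, since CTR9 had 7.42-fold ENL and 7.59-fold H3K9bhb while LEO1 had 5.21-fold ENL and no H3K9bhb peak. Of 18 genes of ketone body and lysine β-hydroxybutyrylation enzymes, transporters and erasers, 3 had both peaks, 3 had ENL only and 1 had H3K9bhb only. EP300, the acyltransferase, had 8.68-fold ENL and 5.08-fold H3K9bhb. SIRT1, a deacylase, had 5.75-fold ENL and no H3K9bhb peak, and HDAC3, an eraser of this mark, had 3.81-fold H3K9bhb and no ENL peak.

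Replication-dependent histone genes and cytosolic ribosomal protein genes carried ENL with the lowest shares of H3K9bhb among the families with at least 5 ENL genes, apart from the keratins. Of 69 histone genes, 13 had both peaks, 32 had ENL only and none had H3K9bhb only, so 28.9% of ENL genes carried the mark. Neighbouring histone genes share peaks, and counted by peak 8 of 42 distinct ENL peaks lay on H3K9bhb (19.0%, interval 9.98 to 33.3), against 3376 of 5046 gene-end ENL peaks in all (66.9%). The chromosome 6 genes, between 25726063 and 27893891, had both at 6 and ENL only at 27 of 55, and the chromosome 1 genes both at 7 and ENL only at 4 of 13. H2AC11 had 5.98-fold ENL with 53 fragments and no H3K9bhb peak, and H1-2 had 4.95-fold ENL and 3.96-fold H3K9bhb. The median local background of the histone ENL peaks was 10.03 fragments, against 3.66 over all ENL genes, and its part in the low share was not tested.

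Ribosomal protein genes had both peaks at 28 of 86, ENL only at 30 and H3K9bhb only at 4, so 48.3% of ENL genes carried the mark. RPL39 had 7.44-fold ENL and 6.76-fold H3K9bhb, and RPS14 5.31-fold H3K9bhb and no ENL peak. Genes of the mitochondrial energy chain and of the proteasome lay between, with H3K9bhb at 59.0% and 58.3% of their ENL genes. ATP5F1B, the catalytic beta subunit of ATP synthase, had 8.20-fold ENL and 6.19-fold H3K9bhb at the same base, and UQCRQ 6.67-fold ENL and no H3K9bhb peak. The large ZNF family had both at 117 of 509, ENL only at 37 and H3K9bhb only at 30, with ZNF410 at 9.36-fold ENL and 6.53-fold H3K9bhb. Odour receptor and body-plan genes had almost none, with 1 shared gene among 390 olfactory receptors (OR2T1) and 1 ENL-only gene among 39 HOX genes (HOXD1). No list was tested as a set. The intervals were not adjusted for the number of families, and neighbouring genes can share peaks. An interval that leaves out the share of all ENL genes is therefore a description only.

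**Figure D5:**
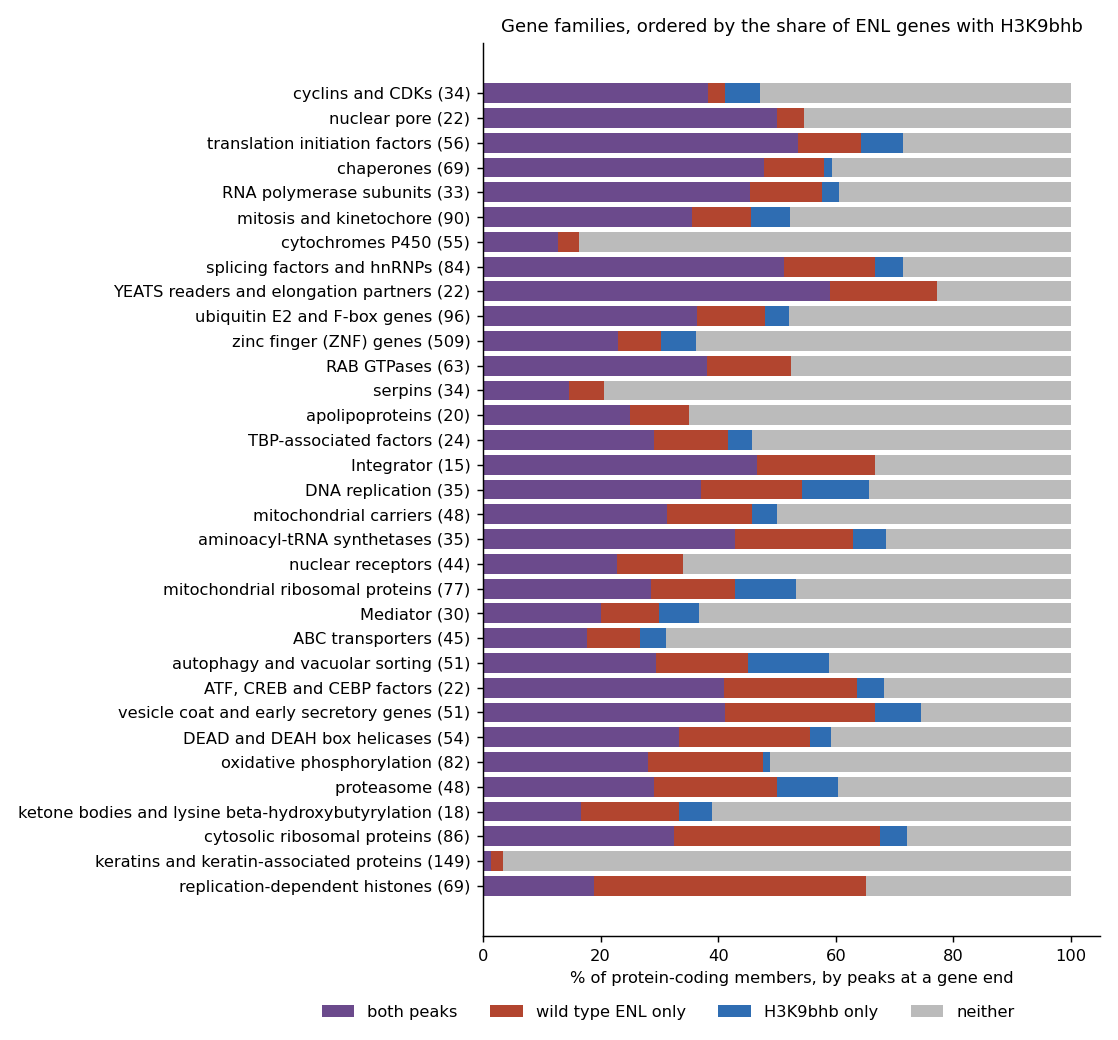
Percent of the protein-coding members of each gene family (number of members in brackets) with both peaks, wild type ENL only, H3K9bhb only or neither at a gene end. Families with at least 5 ENL genes are shown, ordered by the share of ENL genes with H3K9bhb, from 28.9% in replication-dependent histones to 92.9% in cyclins and CDKs.

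Sharing of ENL peaks was lowest on chromosome X. ENL peaks lay on H3K9bhb in 45.3% of cases on chromosome X (interval 39.0 to 51.7, 232 peaks) and in 52.8% on chromosome 12, up to 67.0% on chromosome 10 and 68.7% on chromosome Y (99 peaks). From the side of H3K9bhb, chromosome X lay near the list's 74.7%, with 74.8% of its 143 peaks on ENL (interval 67.1 to 81.2).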

How the data were processed

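CUT&Tag peak lists of HepG2 cells were used, 1 for each of the 5 libraries, grouped by sample title. The tools Bowtie2, FastQC, deepTools and MACS2, and hg38 as the build, appear without versions per the submitters' processing notes. Not given in the sources used here are the control library, duplicate removal and mapping filters. The authors' fold, as deposited, is a ratio of summit signal to local background. Their deposited p and q are on a −log10 scale, and their deposited score was not used. Interval positions and summit offsets deposited by the authors are in bp. The smallest deposited −log10 q was 2.05 in ENL and 2.02 in H3K9bhb.

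From these, peaks on the 24 standard chromosomes were kept (11394 of 12033 and 9176 of 9660), with overlap of at least 1 bp. Summit fragments and local background were recovered from the deposited fold and p, with 1 added to both in the fold and a relative tolerance of 3e-05. Genes were the 20037 RefSeq protein-coding genes, with windows of 1 kb around both ends. A gene counted when a peak overlapped a window, and a peak counted when its summit lay in one. Starts, strand and promoter sequences came from the RefSeq promoter table (15842 genes matched by gene identifier). Shares have Wilson intervals, differences Newcombe intervals and medians order-statistic intervals, all at 95%. PCR duplicates are not separated, so intervals cover counting error only.

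Named genes were the 10 with both peaks and the best mean rank of fold, the 8 strongest ENL-only and the 8 strongest H3K9bhb-only genes, and up to 2 shared and 1 of each single class per family. Symbols starting with LOC, readthrough symbols and open-reading-frame symbols were skipped. CTR9 was added after its values were seen. Some genes of these lists are not reported here. The members and the 35 families were chosen with earlier results of these data known. The code of both steps was run on simulated data. Of the overlaps planted in 11394 peaks 100% were found, and the count differed by 0 from bedtools 2.31.1. Fragment numbers were right for 100% of 500 peaks. These peaks were simulated with the formula used for recovery and did not reach the highest backgrounds of the data. The runs therefore check the code and not whether that formula holds for the deposited values. Python 3.11.15, numpy 2.4.6, pandas 2.3.3, scipy 1.17.1 and matplotlib 3.10.9 were used.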

Additional observations from a re-analysis of the deposited data

Results flagged for a closer look

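Peaks outside the 24 standard chromosomes, on unplaced and alternate contigs, enter no comparison above, and they carried overlap as well. Of 639 ENL peaks there, 377 lay on H3K9bhb (59.0%, interval 55.1 to 62.7), and of 484 H3K9bhb peaks 379 lay on ENL (78.3%, interval 74.4 to 81.7). Their median fold was 5.21 for ENL and 5.13 for H3K9bhb.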

How the results depend on the processing

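Across 57 recomputed values, 32 stayed within the spread of the main value, 25 moved and none reversed. Moved values follow in the order they appear in each setting. With a reciprocal overlap of 50%, 50.7% of ENL and 62.99% of H3K9bhb peaks were shared, the gene-end differences were 10.1 and 13.2 points, the summit distance was 52 bp and the ENL width ratio of shared to unshared peaks was 1.43 (1.52 in the main analysis). With summits at most 200 bp apart, the shares were 53.2% and 66.0%, the differences 9.56 and 12.8 points, and the width ratios 1.40 for ENL and 1.32 for H3K9bhb (1.49 in the main analysis). With a −log10 q of at least 5 (9186 and 6819 peaks), the shares were 56.7% and 76.5%, the H3K9bhb gene-end difference 18.1 points, the summit distance 51 bp, the share of ENL genes with H3K9bhb 66.3% and the ENL width ratio 1.44. With lists of equal length (9176 peaks each), the shares were 66.7% and 67.2%, the H3K9bhb gene-end difference 18.1 points, and 76.6% of ENL genes had H3K9bhb while 78.6% of H3K9bhb genes had ENL. Windows of 2500 bp gave an ENL gene-end difference of 10.5 points. Leaving out peaks over 100 kb from a protein-coding gene, an alternative chosen after seeing the data, gave a summit distance of 61 bp. The cause of these moves was not tested, beyond the fewer peaks or stricter pairing that each setting makes. Families were judged by another rule, under which only a large relative change in the number of genes with both peaks counted as a move. By it, the number moved in 3 of the 35 families with windows of 500 bp, in 2 with windows of 2500 bp and in 0 at equal length. Smaller changes did occur at equal length, such as ZNF genes with both peaks from 117 to 105. The share of ENL genes with H3K9bhb rose from 72.7% to 82.1% for RAB GTPases and fell from 68.2% to 66.7% for aminoacyl-tRNA synthetases.

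No paired analysis was possible because each side is 1 library. Peaks of few fragments lie near the calling threshold, so a peak missing from a list does not show that the protein or mark is absent.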

Other observations

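Some ENL peaks off H3K9bhb lay over very high local background and were picked out after their values were seen. One in NEAT1, a long noncoding RNA of nuclear paraspeckles, held 122 summit fragments over a background of 61.5 at chr11:65422140-65423012, a fold of 1.97. GDF15, a stress-induced hormone gene, had 143 fragments over 50.9 (2.77-fold), and ID1, an inhibitor of DNA binding, had 128 over 55.3 (2.29-fold). Peaks on H3K9bhb reached similar backgrounds, such as one of 165 fragments over 64.3 at chr16:46389701-46390904.

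Of the 3 widest ENL peaks, 2 lay at histone genes on chromosome 1 and the other near KLF9. One of 1968 bp lay at ends of H2AC19 and H3C15 (149850671 to 149852638) and one of 1935 bp near H3C14 (149841143 to 149843077). Both lay on H3K9bhb, although most histone genes with ENL had no H3K9bhb peak. Few peaks lay at small RNA genes away from coding gene ends. ENL peaks at tRNA genes numbered 15 on and 20 off H3K9bhb, and at snRNA genes 20 on and 19 off.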
